A study of Mus musculus with 8 samples.

Results

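The genes described here encode the machinery of glucose breakdown and the response to low oxygen in keratinocytes (KCs), the epithelial cells of the epidermis. The set holds 37 genes out of 41457 in the deposited gene tables. It comprises a glucose transporter, the enzymes from hexokinase to lactate dehydrogenase, the kinases that control the use of pyruvate, the lactate transporters, the hypoxia-inducible factors with their oxygen sensors, and genes that rise in hypoxia. Members were taken from the tables by gene name. This found 36 of them, and Aldoa, which the tables list under 2 numbered names, was taken by its gene identifier. The question was how the RNA of these genes differed between KCs kept in culture for 1 week and for 3 weeks.

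The KCs came from the tail epidermis of adult wildtype C57BL/6 mice (C57BL/6J in the text of the study) and were untreated. They were grown in a serum-free KC medium with a low calcium concentration (0.06 mM) and were split when nearly confluent. Poly(A) RNA was sequenced from 4 samples at 1 week and 4 samples at 3 weeks, numbered as replicates 1 to 4 at each time, and the deposited design text calls them 4 independent experiments. The deposited file names also carry a number whose meaning the labels do not state. It was taken here as the number of the KC preparation. By this number, 3 preparations were present at both times (replicates 1 to 1, 3 to 2 and 4 to 4, from 1 week to 3 weeks). The labels name no genetic change and no treatment with low oxygen, so the set is described across culture time only.

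Glycolysis splits glucose into pyruvate and yields ATP without oxygen. Pyruvate is then either reduced to lactate and exported or burned in mitochondria, and pyruvate dehydrogenase kinases close the mitochondrial route. Hypoxia-inducible factor (HIF) is a transcription factor whose alpha subunit is marked for destruction by prolyl hydroxylases as long as oxygen is present. When oxygen falls, HIF binds a short core sequence in its target genes, among them most glycolytic enzymes. The epidermis has no blood vessels of its own, and its KCs are known for an active glycolysis with much lactate release.

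Between 13896807 and 20026084 reads fell on exons per sample, of which 81.6% to 84.7% mapped to 1 place. Differences are given as log2 fold changes, 3 weeks over 1 week, from edgeR on exon reads with TMM normalization, with standard errors (SE) and with p-values of the quasi-likelihood test, adjusted by Benjamini-Hochberg over the 12590 genes tested. Genes with an adjusted p-value under 0.05 are called higher or lower. Levels are given as RPKM, read numbers per exon length and per sequenced sample, without TMM. Across the 12590 genes the median difference was 0.03 (log2) with TMM and -0.16 for log2(RPKM + 0.1). The samples were KC cultures by their markers. The summed RPKM of 8 basal KC markers was 12304 to 14581 at 1 week and 7241 to 8399 at 3 weeks, while that of 6 suprabasal markers did not exceed 29.8 in any sample. Most of the basal sum came from Krt5 (means of 6170 and 2207 RPKM) and Krt14 (6941 and 5283 RPKM). Of the 8 basal markers only Krt5 and Itga6 were called lower, and 4 had log2 fold changes above 0. The markers of fibroblasts summed to 2.84 to 6.98 RPKM over the 8 samples, of melanocytes to 1.28 to 21.0, of endothelial cells to 0.275 to 0.559, and of leukocytes and Langerhans cells to 1.15 to 3.26, with no read on Cd207 in any sample. Of 8 proliferation markers all 8 were called lower at 3 weeks, against 17.0% of all tested genes. Their summed RPKM fell from between 142 and 257 to between 20.7 and 40.2. At 3 weeks, 2 libraries stood apart. Replicate 3 had 13.3% of its exon reads on mitochondrial genes, against 2.19% to 4.43% in the other 7 samples, and replicate 4 stood far from the other samples of its group in 6 of the 37 genes. Where leaving out either of them changed the call of a gene of the set or moved its fold change by over 1.5 times, the value without that library is given. In such bulk samples, fewer cells of a kind and less RNA per cell cannot be told apart.

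HIF binds the core letters ACGTG or GCGTG, and RefSeq promoter sequences of build GRCm38.p6 were listed for 35 of the 37 genes (all but Epas1 and Ndrg1). The 250 bases before the RefSeq transcription start were searched for these letters on both strands. At least 1 match was present for 31 of the 35 genes (88.6%, against 41.5% of all 27025 genes with a promoter listed). A match was present for all 7 called higher and for the 3 genes called lower that had a promoter listed. It was also present for 21 of the 24 genes not called. By promoter, 39 of 49 (79.6%) held a match, against 38.6% of all 32851 listed promoters and 55.7% of the 12492 promoters listed for genes that were tested. The letters contain CG, and the median GC content was 60.4% in the promoters of these genes, 60.0% for tested genes and 52.4% for all. The E-box CACGTG contains ACGTG on both strands and was present in 7 of the 49 promoters (14.3%), against 6.0% of all promoters and 8.2% of those of tested genes. Promoters of 7 called genes are shown as examples of the matches, 4 of them higher and 3 lower at 3 weeks, chosen after the calls were seen. Those of Hk1, Pdk2 and Pfkm, which also held matches and have several starts listed, are not shown. For Pfkfb3, which has 2 promoters with 4 matches together, 1 promoter with 1 match is shown. The RefSeq starts differ from the gene ends of the deposited data for some genes. The stretches of P4ha2 and Slc16a3 lie inside the deposited gene span, and those of Pfkfb3 and Pdk4 overlap it in part. Matches are in capitals, read on either strand, and a match is a run of letters and not a measured binding site.
P4ha2 (chr11:54100674-54100923, plus strand): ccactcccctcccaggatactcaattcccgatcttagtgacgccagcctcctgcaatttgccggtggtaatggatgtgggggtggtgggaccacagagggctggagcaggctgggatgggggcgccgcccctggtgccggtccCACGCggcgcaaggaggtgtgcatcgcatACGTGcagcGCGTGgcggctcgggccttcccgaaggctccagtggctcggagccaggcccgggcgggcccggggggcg
Adm (chr7:110627407-110627656, plus strand): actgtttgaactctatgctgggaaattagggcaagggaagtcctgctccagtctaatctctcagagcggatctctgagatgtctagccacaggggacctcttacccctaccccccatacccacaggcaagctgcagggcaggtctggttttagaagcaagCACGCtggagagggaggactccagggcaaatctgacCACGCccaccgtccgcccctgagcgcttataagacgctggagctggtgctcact
Pfkfb3 (chr2:11553930-11554179, minus strand): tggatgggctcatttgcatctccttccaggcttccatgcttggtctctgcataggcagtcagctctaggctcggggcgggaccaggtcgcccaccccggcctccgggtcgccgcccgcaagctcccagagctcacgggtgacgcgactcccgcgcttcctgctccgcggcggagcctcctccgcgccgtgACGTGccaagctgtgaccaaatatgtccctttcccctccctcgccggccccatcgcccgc
Pdk4 (chr6:5496279-5496528, minus strand): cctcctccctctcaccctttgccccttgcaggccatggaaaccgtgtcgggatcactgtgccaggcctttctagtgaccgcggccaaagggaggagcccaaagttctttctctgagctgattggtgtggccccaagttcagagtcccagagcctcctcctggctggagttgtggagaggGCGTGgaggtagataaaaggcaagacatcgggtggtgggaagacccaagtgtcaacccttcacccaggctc
Hk2 (chr6:82774455-82774704, minus strand): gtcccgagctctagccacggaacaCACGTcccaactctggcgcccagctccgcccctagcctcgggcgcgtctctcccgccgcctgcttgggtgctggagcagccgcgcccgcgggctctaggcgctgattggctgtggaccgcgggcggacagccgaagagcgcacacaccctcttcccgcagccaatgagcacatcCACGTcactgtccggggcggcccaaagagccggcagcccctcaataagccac
Slc16a1 (chr3:104638414-104638663, plus strand): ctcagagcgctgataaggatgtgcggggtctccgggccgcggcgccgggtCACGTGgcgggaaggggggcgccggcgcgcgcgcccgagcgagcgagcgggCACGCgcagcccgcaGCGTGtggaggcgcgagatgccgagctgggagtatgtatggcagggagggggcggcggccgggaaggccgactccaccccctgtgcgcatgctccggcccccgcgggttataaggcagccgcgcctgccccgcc
Slc16a3 (chr11:120948817-120949066, plus strand): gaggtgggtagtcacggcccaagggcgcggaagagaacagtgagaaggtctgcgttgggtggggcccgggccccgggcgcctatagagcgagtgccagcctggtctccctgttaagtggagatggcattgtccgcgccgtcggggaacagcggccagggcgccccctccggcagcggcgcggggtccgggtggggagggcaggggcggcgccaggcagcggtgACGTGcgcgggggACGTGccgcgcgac

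After 3 weeks, KCs had less RNA of the lactate transporters Slc16a1 and Slc16a3, of hexokinase 2 and of Ndrg1. They had more of P4ha2, Adm, Pdk2, Pdk4, Pfkm and Pfkfb3, while no enzyme between aldolase and pyruvate kinase was called. Hk1 was also called higher, a call kept in only 7 of 20 alternative analyses. Of the 37 genes, 36 had enough reads to be tested. The exception was the neuronal enolase Eno2, with at most 4 reads in a sample. Of the 36, 11 were called (30.6%), against 32.8% of all tested genes. There were 7 called higher (19.4%, against 15.7% of all tested genes) and 4 called lower (11.1%, against 17.0%), so the share called lay near that of all genes. The median log2 fold change of the 36 genes was -0.05, with 16 values above and 20 below 0. RPKM of the groups did not overlap for 13 of the 36 genes (36.1%), 6 with all samples of 3 weeks above and 7 below, against 37.0% of all tested genes. Without replicate 3 of 3 weeks, 7 genes were called higher and 5 lower, and without replicate 4 the numbers were 8 and 6.

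**Figure D1:**
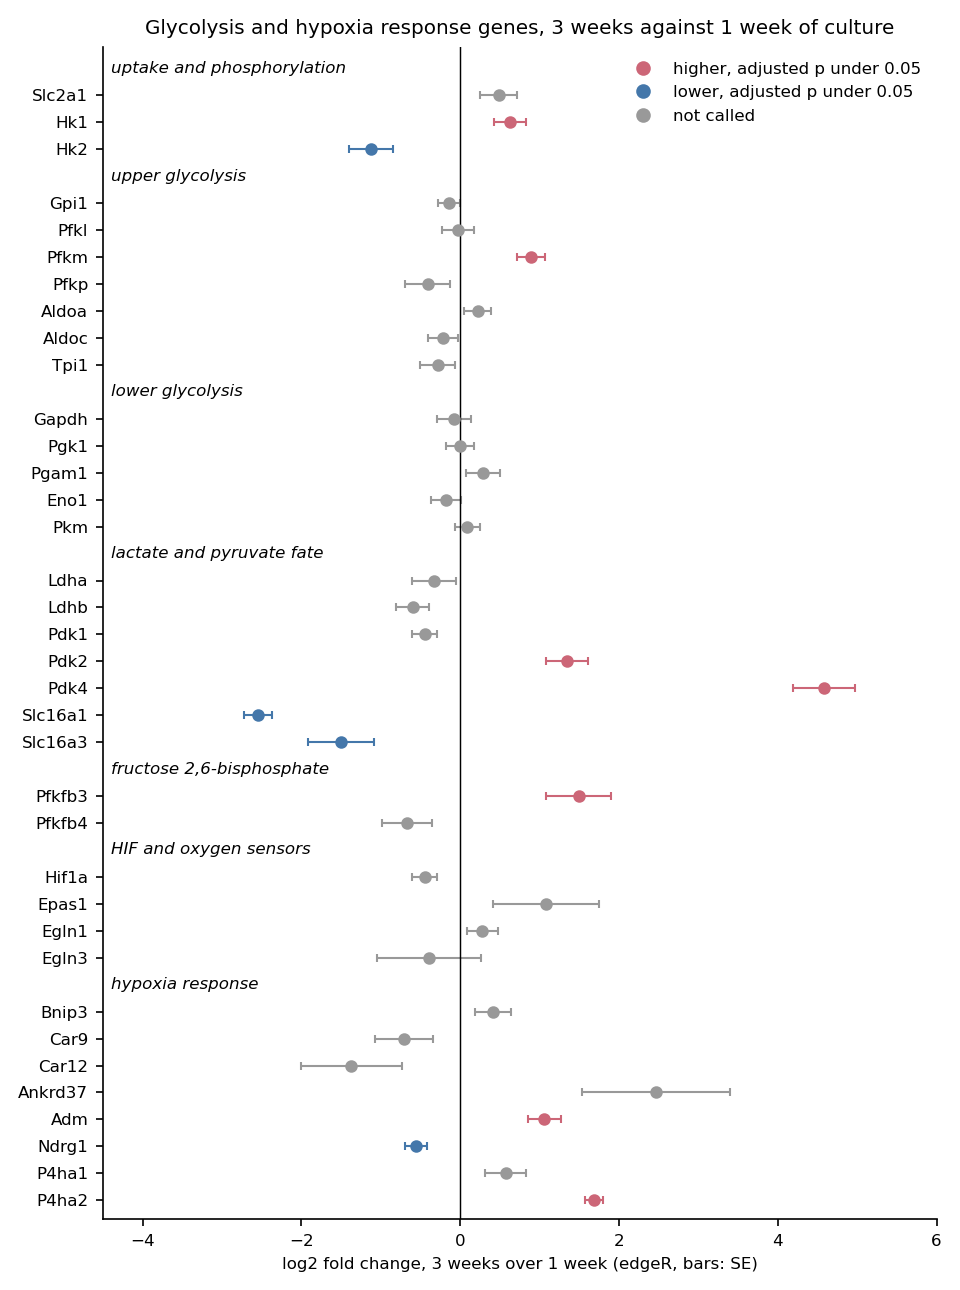
Log2 fold change (3 weeks over 1 week) of the 36 tested genes on the x axis, by role, with bars for the SE from edgeR (4 samples per group). The enzymes from Gapdh to Pkm lie within 0.29 of 0 and were not called, whereas Pdk4 (4.59) and Slc16a1 (-2.55) lie farthest from 0.

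The first steps of glycolysis showed an exchange between the hexokinases. Hexokinases phosphorylate glucose and so trap it in the cell. Hk2, the inducible form that is typical of proliferating cells (chr6:82725025-82774454), measured 7.57, 9.86, 8.81 and 11.2 RPKM in replicates 1 to 4 at 1 week and 5.47, 4.58, 1.76 and 3.71 RPKM at 3 weeks. All samples of 3 weeks lay below all samples of 1 week, and replicate 3 of 3 weeks was the lowest. Hk2 fell by 1.13 on the log2 scale (SE 0.28, adjusted p = 0.0140), a level 2.19-fold lower, and by 0.93 without that library (adjusted p = 0.00604). Hk1, the widely expressed form (chr10:62268855-62379908), measured 10.4, 12.3, 14.7 and 15.5 RPKM at 1 week and 23.1, 19.5, 10.9 and 20.4 RPKM at 3 weeks. Here 3 samples of 3 weeks lay above all samples of 1 week, and replicate 3 lay among them. Hk1 was 1.55-fold higher (log2 0.63, SE 0.21, adjusted p = 0.0431), a call that was lost in 13 of 20 alternative analyses, with adjusted p-values up to 0.188. Leaving out single samples, it was kept only without replicate 3 of 3 weeks (log2 0.76, adjusted p = 0.00760), and without replicate 4 of 3 weeks it missed the test (log2 0.60, adjusted p = 0.0668). The sum of both hexokinases was nearly level, at 22.6 ± 3.63 RPKM (SD, n = 4) and 22.4 ± 6.81 RPKM.

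Slc2a1 encodes GLUT1, the main glucose transporter of KCs. Its level was above that of both hexokinases, with 82.0, 74.2, 96.7 and 116 RPKM at 1 week and 147, 136, 103 and 75.4 RPKM at 3 weeks. Replicates 3 and 4 of 3 weeks lay within the 1-week range, whereas replicates 1 and 2 lay above it. The difference did not pass the test (log2 0.49, SE 0.23, adjusted p = 0.138), and without replicate 4 it did (0.66, SE 0.17, adjusted p = 0.0185).

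Phosphofructokinase, the main control point of glycolysis, was made mostly from the liver-type gene at both times. Pfkl measured 28.6 ± 5.67 RPKM (SD, n = 4) and 25.2 ± 6.47 RPKM at the earlier and the later time (log2 -0.02, SE 0.20, adjusted p = 0.939). The platelet-type gene Pfkp measured 9.37 ± 1.34 and 6.33 ± 2.68 RPKM (log2 -0.41, SE 0.28, adjusted p = 0.298). The muscle-type gene Pfkm (chr15:98092589-98132451) measured 5.50, 5.63, 5.44 and 5.28 RPKM at 1 week and 8.08, 7.63, 7.78 and 12.8 RPKM at 3 weeks. All samples of 3 weeks lay above the narrow 1-week range, with replicate 4 above the rest. Pfkm rose 1.85-fold (log2 0.89, SE 0.17, adjusted p = 0.00493), and the log2 fold change was 0.71 without replicate 4 (adjusted p = 0.00233). The span of Pfkm overlaps that of Senp1 on the opposite strand, and the library kit did not mark strand. Reads in a shared stretch cannot be assigned by strand, and how much of the exons is shared was not measured. Senp1 was called lower (log2 -0.67, SE 0.12, adjusted p = 0.00340). Likewise Pfkp overlaps Pitrm1, which was called lower (log2 -0.57, SE 0.12, adjusted p = 0.00585).

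The other enzymes of upper glycolysis did not pass the test. Gpi1, which converts glucose 6-phosphate to fructose 6-phosphate, measured 69.3 ± 7.00 RPKM at 1 week and 56.1 ± 7.43 RPKM at 3 weeks. Its groups did not overlap in RPKM, but the highest sample of 3 weeks and the lowest of 1 week both rounded to 62.8, and after TMM the log2 fold change was -0.14 (SE 0.14, adjusted p = 0.461). Aldoa, the main aldolase, measured 499 ± 47.2 and 518 ± 79.8 RPKM and made up 98.1% to 99.1% of the aldolase RPKM in every sample. Its log2 fold change was 0.22 (SE 0.17, adjusted p = 0.368). Aldoc, the form named for brain, measured 7.76 ± 1.51 and 6.00 ± 1.39 RPKM (adjusted p = 0.414). Triose phosphate isomerase, Tpi1, measured 266 ± 55.3 and 195 ± 46.4 RPKM (log2 -0.28, SE 0.22, adjusted p = 0.363).

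Lower glycolysis, which harvests ATP and NADH, held several of the most abundant RNAs of the set. Pyruvate kinase, Pkm, which makes pyruvate, had the highest RPKM of the 37 genes at both times. It measured 621, 569, 629 and 722 RPKM at 1 week and 568, 603, 604 and 632 RPKM at 3 weeks, and ranked 67th and 68th among all genes by mean RPKM. Replicate 4 of 1 week was the highest and the groups overlapped throughout. The log2 fold change was 0.09 (SE 0.16, adjusted p = 0.709), and its sign turned on the RPKM scale (-0.07). Glyceraldehyde 3-phosphate dehydrogenase, Gapdh, measured 496 ± 41.2 RPKM at 1 week and 417 ± 102 RPKM at 3 weeks. Its log2 fold change was -0.08 (SE 0.22, adjusted p = 0.802) with a sign that turned without replicate 4 of 3 weeks (0.09), and only 3.25% of its reads mapped to 1 place, so that its level rests on reads shared with copies in the genome. Phosphoglycerate kinase, Pgk1, measured 505 ± 62.7 and 448 ± 58.1 RPKM, with an adjusted p of 0.988. Phosphoglycerate mutase, Pgam1, measured 371 ± 76.3 and 403 ± 79.0 RPKM (log2 0.29, SE 0.21, adjusted p = 0.334). Enolase 1, Eno1, measured 165 ± 20.9 and 129.8 ± 25.7 RPKM (log2 -0.18, SE 0.19, adjusted p = 0.493), with 22.0% of its reads mapped to 1 place. Eno1 made up 99.97% to 100% of the summed RPKM of Eno1 and Eno2. Eno3, an enolase outside the set, measured 0.976 RPKM at 1 week and 0.796 RPKM at 3 weeks.

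The 15 genes from hexokinase to pyruvate kinase took together between 1.00% and 1.32% of all exon reads at 1 week and between 0.88% and 1.14% at 3 weeks. Their RPKM summed to 3014, 2668, 3078 and 3561 at 1 week and to 3069.6, 3132, 2845 and 2304 at 3 weeks. The ranges overlapped, with replicate 4 of 1 week the highest and replicate 4 of 3 weeks the lowest of the 8 samples. Of the 14 tested among them 3 were called (21.4%, against 32.8% of all tested genes), Hk1 and Pfkm higher and Hk2 lower.

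The genes for the fate of pyruvate and lactate held the called genes that moved most in each direction, with 4 of 7 genes called (57.1%, against 32.8% of all tested genes). Monocarboxylate transporters carry lactate and pyruvate across the plasma membrane. Slc16a1, which encodes MCT1 (chr3:104638668-104658462), measured 23.2, 25.4, 22.3 and 29.6 RPKM at 1 week and 4.30, 4.87, 2.81 and 3.48 RPKM at 3 weeks. The groups were far apart, with the lowest sample of 1 week above 4 times the highest of 3 weeks. Slc16a1 fell by 2.55 on the log2 scale (SE 0.17, adjusted p = 0.000164), which is 5.84-fold lower, and was called lower in all 20 alternatives. Slc16a3, which encodes MCT4, the lactate exporter of strongly glycolytic cells (chr11:120948480-120960868), measured 22.5, 12.2, 27.9 and 45.7 RPKM at 1 week and 12.2, 11.4, 5.33 and 5.68 RPKM at 3 weeks. The groups met at 12.2 RPKM, where replicate 2 of 1 week and replicate 1 of 3 weeks lay, and replicate 4 of 1 week was the highest. Slc16a3 fell by 1.50 (SE 0.41, adjusted p = 0.0226), 2.82-fold lower. Without replicate 4 of 1 week the change was -1.12 with an adjusted p of 0.0606. Summed over both transporters, the level was 52.2 ± 16.3 RPKM (SD, n = 4) at the earlier and 12.5 ± 4.49 RPKM at the later time, and the ranges did not overlap.

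Pyruvate dehydrogenase kinases inactivate pyruvate dehydrogenase and so keep pyruvate out of the mitochondria. Pdk1, the form induced by HIF, measured 7.21, 6.60, 6.56 and 9.47 RPKM at 1 week and 5.37, 5.39, 4.46 and 4.33 RPKM at 3 weeks. All samples of 3 weeks were lower, but the test was missed (log2 -0.45, SE 0.16, adjusted p = 0.0549), and 6 of 20 alternatives called it. Pdk2 (chr11:95026258-95041354) measured 2.71, 1.78, 2.00 and 2.17 RPKM at 1 week and 4.82, 3.81, 3.39 and 7.88 RPKM at 3 weeks. All samples of 3 weeks were higher, replicate 4 most of all. Pdk2 rose 2.54-fold (log2 1.34, SE 0.26, adjusted p = 0.00518), with a log2 fold change of 1.06 without replicate 4 (adjusted p = 0.00406). Pdk4, the form known for its induction by fasting and fatty acids (chr6:5483351-5496309), was close to absent at 1 week, with 4, 3, 1 and 4 reads, and had 47, 63, 74 and 58 reads at 3 weeks. This corresponds to 0.0464 ± 0.0203 and 1.05 ± 0.239 RPKM (SD, n = 4). Per exon read the ratio of the summed reads was 21.8 (95% exact interval 12.3 to 42.9, counting error only), and the fitted log2 fold change was 4.59 (SE 0.39, adjusted p = 0.000211). Pdk4 was called higher in the 19 alternatives that tested it.

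Lactate dehydrogenase, which interconverts pyruvate and lactate, came mostly from Ldha. Ldha measured 519, 407, 522 and 647 RPKM at 1 week and 399.5, 438, 433 and 207 RPKM at 3 weeks. Replicates 1 to 3 of 3 weeks lay around the lowest sample of 1 week, and replicate 4 lay far below. The difference did not pass the test (log2 -0.33, SE 0.28, adjusted p = 0.393), and the log2 fold change was -0.12 without replicate 4. Ldhb, the heart-type gene, measured 24.8, 27.6, 24.2 and 24.0 RPKM at 1 week and 10.6, 12.6, 18.9 and 16.6 RPKM at 3 weeks. The groups did not overlap, but the test was missed (log2 -0.60, SE 0.21, adjusted p = 0.0568), and 9 of 20 alternatives called Ldhb lower, among them the analysis without replicate 3 of 3 weeks (-0.83, adjusted p = 0.00646) and that with the preparation as a block (-0.82, adjusted p = 0.0312).

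Fructose 2,6-bisphosphate is the strongest activator of phosphofructokinase and is made and removed by the PFKFB enzymes. Pfkfb3, the form with the highest kinase activity (chr2:11471433-11554077), measured 2.95, 3.63, 3.01 and 3.07 RPKM at 1 week and 5.49, 5.22, 4.03 and 17.6 RPKM at 3 weeks. All samples of 3 weeks lay above those of 1 week, and replicate 4 was over 3 times as high as the next. Pfkfb3 rose 2.81-fold (log2 1.49, SE 0.41, adjusted p = 0.0232). Without replicate 4 of 3 weeks it rose by 0.81 (SE 0.12, adjusted p = 0.00181). The call was lost without replicate 1, 3 or 4 of 1 week, with adjusted p-values of 0.0586 to 0.0689. It was also lost with limma on log2(RPKM + 0.1) and on log2(RPKM + 1), with adjusted p-values of 0.0682 and 0.0823. Pfkfb4 measured 0.733, 0.667, 1.24 and 1.51 RPKM at 1 week and 0.561, 0.624, 0.387 and 0.768 RPKM at 3 weeks (log2 -0.68, SE 0.32, adjusted p = 0.132).

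**Figure D2:**
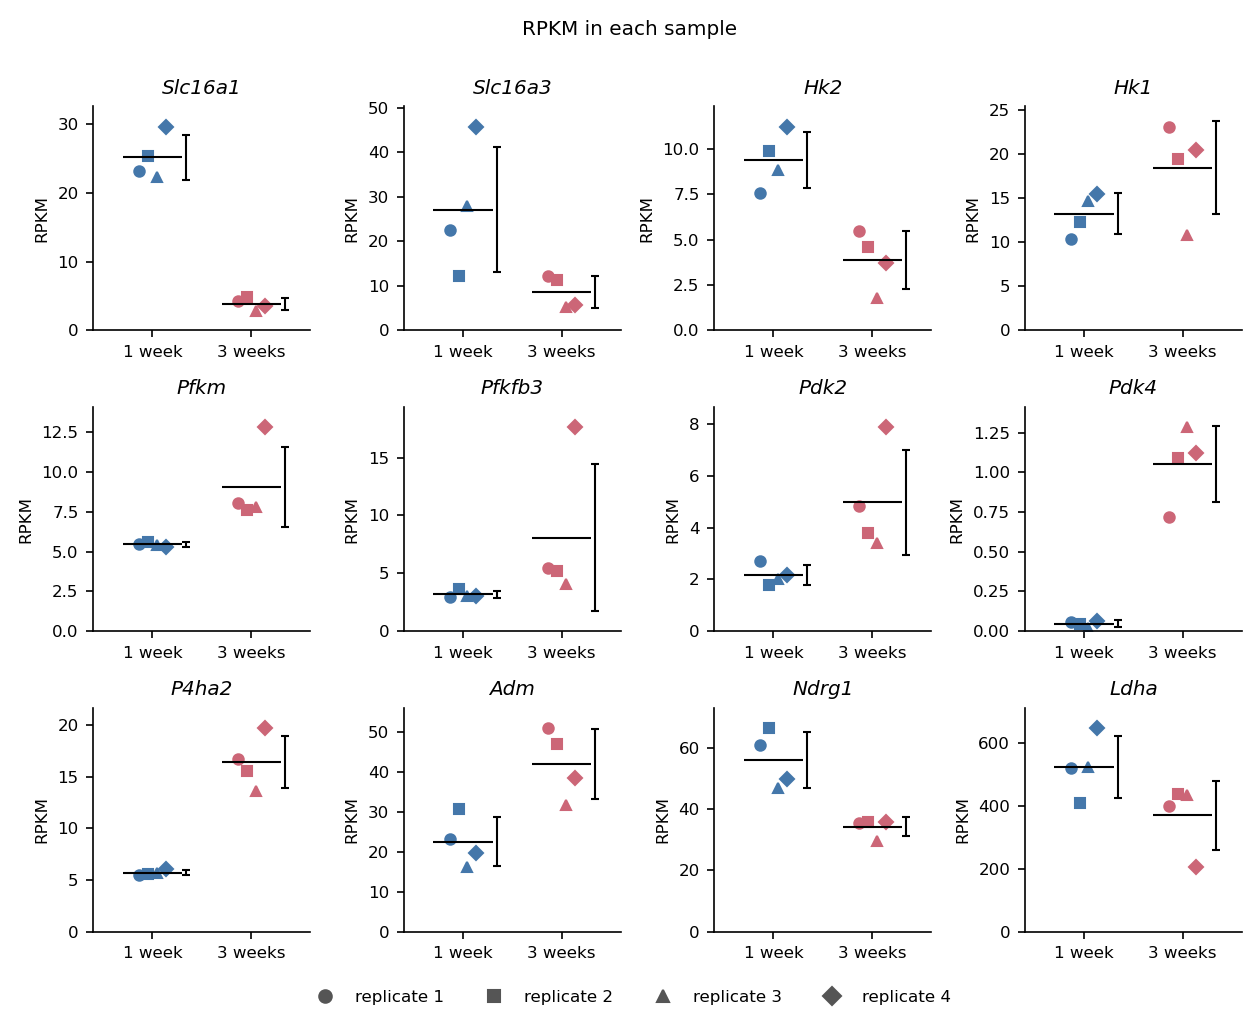
RPKM (y axis, from 0) of 12 genes in each of the 8 samples, 1 week in blue and 3 weeks in red. Symbols mark the replicate number, lines the mean and bars the SD (n = 4). The groups are apart for Slc16a1, Hk2, Pfkm, Pfkfb3, Pdk2, Pdk4, P4ha2, Adm and Ndrg1 and overlap for Slc16a3, Hk1 and Ldha, and replicate 4 of 3 weeks stands apart for Pfkm (12.8), Pfkfb3 (17.6) and Ldha (207).

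Levels are scaled to length, so that isozymes of a step can be set side by side. Each family was taken as its genes in the set, and isozymes outside the set are not in the shares. In 6 families so taken the balance shifted without overlap of the groups. The share of Hk2 in the hexokinase RPKM was 37.4% to 44.6% at 1 week and 13.9% to 19.1% at 3 weeks. Pfkm made up 9.99% to 15.3% of the phosphofructokinase RPKM at 1 week and 16.2% to 34.9% at 3 weeks, and Pfkp 20.9% to 22.5% and 9.18% to 18.5%. Among the 3 pyruvate dehydrogenase kinases of the set, Pdk1 held 72.3% to 80.9% at 1 week and 32.5% to 52.4% at 3 weeks. The sum of these 3 kinases was 9.67 ± 1.52 and 10.9 ± 1.77 RPKM. Pdk3, which is outside the set, had a higher mean than each of them, with 15.5 RPKM at 1 week and 10.2 RPKM at 3 weeks. It was not called (log2 -0.44, SE 0.15, adjusted p = 0.05004), but 9 of 20 alternatives called it lower, among them the analysis without replicate 3 of 3 weeks. The share of Slc16a1 in the lactate transporters was 39.3% to 67.5% at 1 week and 26.0% to 37.9% at 3 weeks, so that its upper value at 3 weeks came close to its lower value at 1 week. Pfkfb4 held 15.5% to 33.0% of the PFKFB pair at 1 week and 4.18% to 10.7% at 3 weeks. P4ha2 held 27.2% to 34.5% of the collagen prolyl hydroxylase pair at 1 week and 42.8% to 67.3% at 3 weeks. Within the set, the summed RPKM of the hexokinases, phosphofructokinases, pyruvate dehydrogenase kinases and PFKFB enzymes overlapped between the groups. That of the collagen prolyl hydroxylases in the set rose without overlap from 18.4 ± 2.84 to 33.3 ± 4.97. Outside the set, Pfkfb2 measured 2.70 and 2.87 RPKM at 1 week and 3 weeks and was not called. Pfkfb1 measured 0.774 and 0.318 RPKM and was called lower (adjusted p = 0.0364), as in 11 of 20 alternatives. The shares of the aldolases, enolases, lactate dehydrogenases, HIF alpha subunits, HIF prolyl hydroxylases and carbonic anhydrases overlapped between the groups. The shares were not tested.

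**Figure D3:**
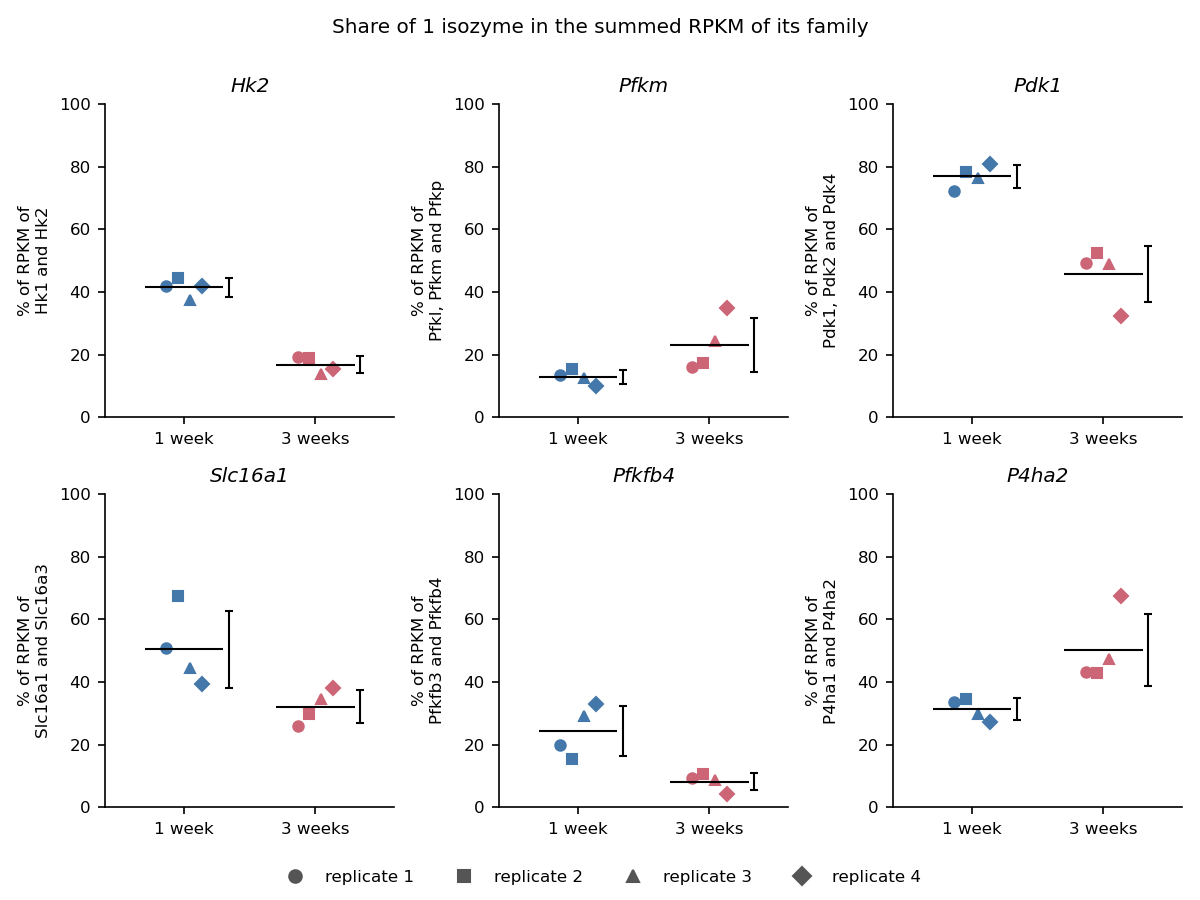
Share (%, y axis) of a named gene in the summed RPKM of the genes of its family that are in the set, in each sample, for 6 families. Symbols mark the replicate number, lines the mean and bars the SD (n = 4). The share of Hk2 lies between 37.4% and 44.6% at 1 week and between 13.9% and 19.1% at 3 weeks, and none of the 6 shares overlaps between the groups.

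The regulators of the hypoxia response did not pass the test. Hif1a, the alpha subunit of HIF found in most cells, measured 52.6, 57.4, 43.2 and 60.1 RPKM at 1 week and 32.6, 33.1, 29.1 and 45.5 RPKM at 3 weeks. Replicate 4 of 3 weeks lay within the 1-week range, and the other samples of 3 weeks below it. The log2 fold change was -0.45 (SE 0.16, adjusted p = 0.0567), and Hif1a was called lower in 6 of 20 alternatives, with -0.57 (adjusted p = 0.0117) without replicate 4 and -0.54 (adjusted p = 0.0369) without replicate 3 of 1 week. Only 21.1% of the Hif1a reads mapped to 1 place. Epas1, the alpha subunit best known from endothelial cells, was low, with 0.386 ± 0.222 RPKM at 1 week and 0.744 ± 0.722 RPKM at 3 weeks (adjusted p = 0.241), and made up between 0.30% and 3.81% of the HIF alpha RPKM. Its mean at 3 weeks rests on replicate 4, with 1.80 RPKM against 0.196 to 0.576 RPKM in the other samples. Epas1 had a log2 fold change of 1.08 with that library and of 0.21 without it (adjusted p = 0.784), and the mean of the rest was 0.392 RPKM.

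HIF prolyl hydroxylases read the oxygen level. Egln1, the main one, measured 19.0 ± 4.57 and 20.6 ± 4.13 RPKM (log2 0.28, SE 0.20, adjusted p = 0.315). Egln3, itself a HIF target, measured 2.53, 1.90, 3.72 and 8.48 RPKM at 1 week and 1.17, 1.28, 2.01 and 7.01 RPKM at 3 weeks. Replicate 4 was the highest at each time, and both carry preparation number 90. The log2 fold change of Egln3 was -0.40 (SE 0.65, adjusted p = 0.677), and its sign turned without replicate 4 of 1 week (0.22). Without replicate 4 of 3 weeks it was -1.28 (adjusted p = 0.0965). Egln3 was lower at 3 weeks in each of the 3 preparations that were present at both times, and with the preparation as a block the log2 fold change was -0.87 (adjusted p = 0.0769).

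Among the 8 hypoxia response genes, 2 were called higher and 1 lower (37.5% called, near the 32.8% of all tested genes). P4ha1 and P4ha2 hydroxylate proline in collagen. P4ha2 (chr11:54100095-54131665) measured 5.46, 5.61, 5.68 and 6.02 RPKM at 1 week and 16.7, 15.5, 13.7 and 19.7 RPKM at 3 weeks. The 1-week samples lay close together and all samples of 3 weeks lay at more than 2 times their values. P4ha2 rose 3.21-fold (log2 1.68, SE 0.12, adjusted p = 0.000164), and was called higher in all 20 alternatives. P4ha1 measured 10.7, 10.6, 13.4 and 16.1 RPKM at 1 week and 21.9, 20.8, 15.2 and 9.56 RPKM at 3 weeks. Replicate 4 of 3 weeks had the lowest P4ha1 and the highest P4ha2 of its group. The log2 fold change of P4ha1 was 0.57 (SE 0.26, adjusted p = 0.127), and 0.78 without that library (adjusted p = 0.00943).

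Adm encodes adrenomedullin, a secreted vasodilator peptide (chr7:110627661-110629820). It measured 23.2, 30.6, 16.3 and 19.7 RPKM at 1 week and 50.9, 46.9, 31.6 and 38.4 RPKM at 3 weeks. The groups were separated by a small gap between replicate 2 of 1 week and replicate 3 of 3 weeks. Adm rose 2.08-fold (log2 1.06, SE 0.21, adjusted p = 0.00515). Only 13.0% of its reads mapped to 1 place, and with these reads alone the log2 fold change was 1.00 (adjusted p = 0.0155).

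Ndrg1, a stress-responsive gene that is induced by hypoxia and in differentiating epithelia (chr15:66929318-66969640), measured 61.0, 66.6, 46.9 and 49.8 RPKM at 1 week and 35.5, 36.0, 29.6 and 36.0 RPKM at 3 weeks. All samples of 3 weeks were lower, with replicate 3 the lowest. Ndrg1 fell by 0.55 (SE 0.14, adjusted p = 0.0151). It was called in 18 of 20 alternatives, the exceptions being those with a replicate or preparation block.

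The carbonic anhydrases Car9 and Car12, which control pH at the cell surface, were low. Car9 had 7 to 43 reads in a sample and measured 0.694 ± 0.252 RPKM at 1 week and 0.374 ± 0.117 RPKM at 3 weeks, without overlap of the groups and without passing the test (log2 -0.71, SE 0.36, adjusted p = 0.167). Reads of its antisense gene Gm12454 amounted to 43.3% of the Car9 reads. Car12 measured 1.41, 1.55, 2.10 and 3.76 RPKM at 1 week and 0.212, 0.280, 0.769 and 1.80 RPKM at 3 weeks. Replicate 4 was the highest at each time, and that of 3 weeks lay within the 1-week range. The log2 fold change of Car12 was -1.37 (SE 0.64, adjusted p = 0.129) and -2.17 without replicate 4 of 3 weeks (adjusted p = 0.0173). In the 3 preparations present at both times Car12 went from 1.41 to 0.212, from 2.10 to 0.280 and from 3.76 to 1.80 RPKM. Car12 was called lower with the preparation as a block (-2.09, adjusted p = 0.0175) and with the replicate number as a block (-1.72, adjusted p = 0.0152).

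Bnip3, which promotes the removal of mitochondria, measured 22.0 ± 6.98 RPKM at 1 week and 26.3 ± 4.70 RPKM at 3 weeks (log2 0.42, SE 0.23, adjusted p = 0.194), with 16.9% of its reads mapped to 1 place. It was called higher only without replicate 4 of 1 week (log2 0.64, adjusted p = 0.0436). Ankrd37, a HIF target of little known function, measured 0.307, 0.0946, 0.679 and 0.332 RPKM at 1 week and 0.383, 0.474, 0.791 and 5.40 RPKM at 3 weeks. Replicate 4 of 3 weeks held most of the reads, and the other samples overlapped. The log2 fold change was 2.46 (SE 0.94, adjusted p = 0.0722), and 0.88 without that library (adjusted p = 0.279), whereas DESeq2 with all samples called it (adjusted p = 0.0171). Ufsp2, which overlaps Ankrd37 on the opposite strand, had 436 to 765 reads in a sample, against at most 122 on Ankrd37.

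The heat map of the single samples shows how far the libraries of a time differed. At 1 week, replicate 4 had the highest RPKM of its group in 28 of the 37 genes and replicate 2 the lowest in 21. At 3 weeks, replicate 4 was the highest in 13 and the lowest in 15, and replicate 3 the lowest in 15. In replicate 4 of 3 weeks the genes that were highest were Pfkm, Aldoc, Pkm, Pdk2, Pfkfb3, Pfkfb4, Hif1a, Epas1, Egln3, Car12, Ankrd37, Ndrg1 and P4ha2, and those that were lowest were Slc2a1, Gpi1, Pfkp, Aldoa, Tpi1, Gapdh, Pgk1, Pgam1, Eno1, Ldha, Pdk1, Egln1, Bnip3, Car9 and P4ha1. Both libraries named replicate 4 carry the same preparation number. At 1 week that preparation was the highest of its group for each of the genes in which it was lowest at 3 weeks. It was the highest at both times for Aldoc, Pkm, Pfkfb4, Hif1a, Egln3, Car12 and P4ha2. The part of the preparation in these values was not tested.

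**Figure D4:**
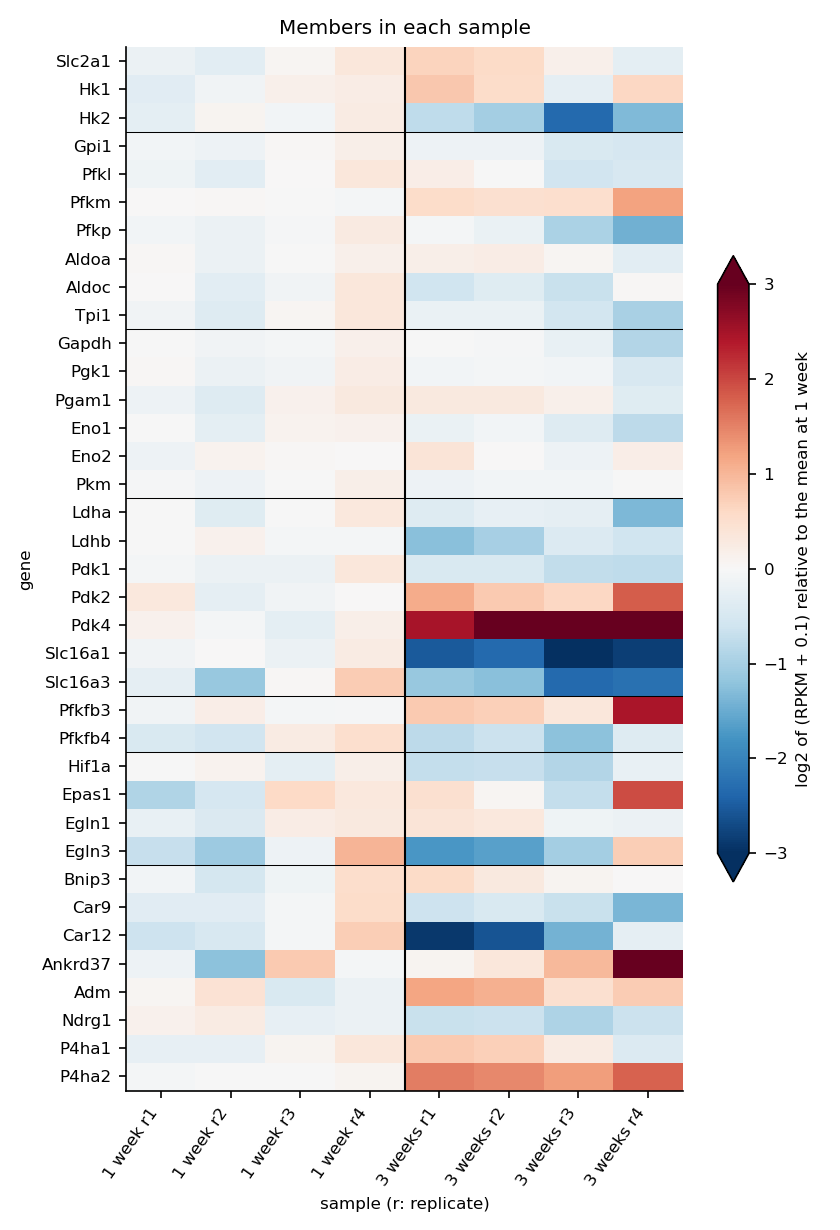
Log2 of (RPKM + 0.1) relative to the mean at 1 week (colour, cut at -3 and 3) for the 37 genes (rows, in order of role, horizontal lines between roles) in the 8 samples (columns). Slc16a1 is blue and Pdk4 and P4ha2 are red in all samples of 3 weeks, whereas Ankrd37, Pfkfb3 and Epas1 are darkest in replicate 4 of 3 weeks.

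Genes of the same pathways outside the set were read from lists. Of 22 other glycolytic isozymes and regulators, 10 were tested, 1 was called higher and 2 lower (30% called, against 32.8% of all tested genes). Bpgm, bisphosphoglycerate mutase, rose from 5.34 to 8.62 RPKM (log2 0.86, SE 0.21, adjusted p = 0.0134), and the ADP-dependent glucokinase Adpgk fell from 3.50 to 2.21 RPKM (log2 -0.50, adjusted p = 0.00917). The call of Bpgm was lost with the preparation block (adjusted p = 0.0566), and that of Adpgk with the replicate block (0.0583) and the preparation block (0.0720). Of 9 genes for the entry of pyruvate into mitochondria none was called higher and 3 were called lower, so that 33.3% were called, near the 32.8% of all genes, and 17.0% of all genes were called lower. These were Pdha1 and Dld, subunits of pyruvate dehydrogenase, which fell by 0.35 (adjusted p = 0.0388) and 0.42 (adjusted p = 0.0371), and the phosphatase Pdp2, which reactivates the complex and fell by 0.92 (SE 0.18, adjusted p = 0.00469). Pdha1 and Dld were each called in only 11 of 20 alternatives, with adjusted p-values up to 0.134 and 0.107, whereas Pdp2 was called in all 20. Of 8 genes of the pentose phosphate pathway, which branches off glucose 6-phosphate, 1 was called (12.5%, against 32.8% of all tested genes). This was Rpia, which fell by 0.62 (adjusted p = 0.0194) and was called in 18 of 20 alternatives. All values of these genes at 3 weeks lay on one side of those at 1 week.

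Of 11 other components of the HIF pathway 9 were tested, and 1 was called in each direction (22.2% called, against 32.8% of all tested genes). Cited2, a HIF target that restrains HIF by competing for its coactivator, rose from 39.1 to 57.8 RPKM (log2 0.73, SE 0.15, adjusted p = 0.00665), and Cul2, part of the ligase that degrades HIF alpha, fell by 0.40 (adjusted p = 0.0324). Cited2 was called in all 20 alternatives and Cul2 in 14, with adjusted p-values up to 0.120. Of 21 other hypoxia-induced genes 20 were tested, 4 were called higher and 3 lower, shares of 20% and 15% that lie near those of all genes. Angptl4, a lipoprotein lipase inhibitor, rose from 3.09 to 10.7 RPKM (log2 1.95, SE 0.31, adjusted p = 0.00200). Plod2, which hydroxylates lysine in collagen as P4ha2 hydroxylates proline, rose from 11.8 to 21.6 RPKM (log2 1.03, SE 0.15, adjusted p = 0.00128), and the mTORC1 inhibitor Ddit4 from 114 to 139 RPKM (log2 0.45, adjusted p = 0.0255). Stc2, a secreted glycoprotein, fell by 4.21 (SE 0.58, adjusted p = 0.000985), with 1.52 to 10.8 RPKM at 1 week and 0.153 to 0.368 RPKM at 3 weeks. Siah2, a ubiquitin ligase of HIF prolyl hydroxylases, fell by 0.83 (adjusted p = 0.00637), and the glycogen branching enzyme Gbe1 by 0.57 (adjusted p = 0.0361). Angptl4, Plod2, Stc2 and Siah2 were called in all 20 alternatives, Ddit4 in 10 (adjusted p up to 0.145) and Gbe1 in 12 (adjusted p up to 0.0861).

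The proliferation markers fell in the same samples in which Slc16a1, Hk2 and Slc16a3 fell, and their part in these differences was not tested. Of the other marker lists, 2 of 8 basal and 2 of 5 tested suprabasal KC markers were called lower, as were 1 of 8 fibroblast and 1 of 4 tested melanocyte markers, and none of the 2 endothelial and the 1 leukocyte marker tested was called. None of these markers was called higher. Of all tested genes, 17.0% were called lower and 15.7% higher.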

How the data were processed

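Poly(A) RNA of cultured KCs was sequenced from 4 samples at 1 week and 4 samples at 3 weeks. The authors made libraries with a kit that does not mark strand, trimmed adapters, and mapped single reads in the CLC Genomics Workbench (default settings, build GRCm38). Whether counting used strand and which annotation was used are not given in the sources used here. The deposited counts are whole reads per gene (total exon, unique exon and total gene reads) without normalization. The authors also deposited RPKM and TPM, written with decimal commas. The RPKM values equalled exon reads divided by exon length and mapped reads. The precision of a value is set by 13896807 to 20026084 exon reads per sample. Replicates of a time differed beyond sampling noise, the smallest chi-square per degree of freedom being 14.6.

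For the tests on total exon reads, edgeR 4.0.16 under R 4.3.3 was used (filterByExpr, TMM, glmQLFit, glmQLFTest, Benjamini-Hochberg, threshold 0.05) over all 8 samples without pairing, since the replicate numbers do not carry 1 preparation number across both times and only 3 preparations occur at both. The study describes batches of KCs shared between the times. SEs were derived from the F statistics. Alternatives were DESeq2 1.42.0, upper-quartile normalization, no filter, at least 10 reads in every sample, unique exon reads, total gene reads, limma 3.58.1 on log2(RPKM + 0.1) and log2(RPKM + 1), a replicate block, the 3 preparations whose number stands in file names of both times with that number as a block, removal of the 20 most counted genes, and omission of each sample. The same 3 preparations without a block were an alternative chosen after seeing the data. On simulated counts modelled on these samples (12462 genes, 194 changed), 118 were recovered (34.4% at a 2-fold change, 86.7% at a 4-fold change) beside 7 false calls. Far fewer genes were changed there than the 4127 of 12590 called in the main comparison. The adjustment depends on that share, so the recovery does not carry over to these data.

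All 37 genes are named. From pathway lists (other glycolytic isozymes, pyruvate entry, pentose phosphate pathway, HIF components, hypoxia-induced genes), the 3 called genes of at least 2 RPKM with the largest change in each direction are named. Pdk3, Pfkfb1, Pfkfb2 and Eno3 are named besides, as isozymes outside the set. Markers of 7 cell states are given by sum and count, with Krt5, Krt14, Itga6 and Cd207 named. The members and lists were chosen with earlier results of these data known. Of the list symbols, Tceb1, Tceb2 and Ero1a matched no row. Promoters were those of RefSeq for GRCm38.p6, matched by symbol. Python 3.11.15 and matplotlib 3.10.9 were used.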

Additional observations from a re-analysis of the deposited data

Results flagged for a closer look

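A sample was singled out where the gap between it and its nearest neighbour in its group of 4 exceeded Dixon's critical share of the whole range of RPKM at 95%. Chance would single out about 1 in 20 groups, and 74 groups were looked at. There were 7 such values, 6 of them in replicate 4 of 3 weeks. This library was high for Pfkm (12.8 RPKM, the others 7.63 to 8.08), Pfkfb3 (17.6, the others 4.03 to 5.49), Egln3 (7.01, the others 1.17 to 2.01) and Ankrd37 (5.40, the others 0.383 to 0.791). It was low for Pgk1 (362 RPKM, the others 474 to 484) and Ldha (207, the others 399.5 to 438). The remaining value was Ndrg1 in replicate 3 of 3 weeks, with 29.6 RPKM against 35.5 to 36.0 in the others. What sets replicate 4 apart was not tested.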

How the results depend on the processing

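Over the 36 tested genes and 20 alternatives, 717 values were computed, of which 653 kept direction and side of the threshold, 22 lost the call, 30 gained one and 12 changed sign. No called gene changed sign. Hk2, Pfkm, Pdk2, Pdk4, Slc16a1, Adm and P4ha2 kept their call in every alternative that tested them. The main comparison called 7 genes higher and 4 lower. DESeq2 called 8 higher and 7 lower, and limma on RPKM called 5 higher and 8 lower with either pseudocount, on a scale without TMM where 29.8% of all calls (pseudocount 0.1) were higher, against 48.0% in the main comparison. On the log2(RPKM + 1) scale the change of Pdk4 was 0.97. Without single samples, 5 to 8 genes were called higher and 3 to 6 lower, and 3015 to 4861 genes of all were called against 4127.

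Sign changes were the following. Pkm had -0.07431 and -0.07421 on the RPKM scales with pseudocounts 0.1 and 1, and -0.05017 with and -0.05197 without the block in the 3 shared preparations. Pgk1 had 0.004772 with DESeq2. Without single samples, Pfkl ranged from -0.16 to 0.11, Gapdh from -0.1662 to 0.09208, Pgk1 from -0.1088 to 0.1046, and Egln3 from -1.276 to 0.2199. None of these was called, and the cause was not tested.

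With the replicate number as a replicate block, 6 genes were called higher, 3 lower and 2867 of all, and Hk1, Slc16a3 and Ndrg1 lost their call while Car12 gained one. The numbers were not taken to pair the samples, since the deviations of same-numbered samples correlated by -0.23, -0.15, -0.15 and 0.25. Same-preparation samples correlated by -0.23, 0.20 and 0.25, and that block called 7 higher and 5 lower, with Car12 and Ldhb gained and Ndrg1 lost.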
